A study of Arabidopsis thaliana with 11 samples.

Results

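In Arabidopsis thaliana, 95 loci that the array's probe table names only by their genome locus tag gave a strong signal in flowers and a weak one in leaves and stems. They were chosen by the deposited signal itself. Every signal under 100 was first set to 100, and a locus was kept when its lowest flower array was at least 4 times its highest leaf or stem array. Only probe sets paired with exactly 1 gene, whose symbol is the bare locus tag, could enter. Of 11933 such probe sets 95 met the rule, which is 0.796%, out of 22810 probe sets in the table. Among the 1580 probe sets whose single gene has a symbol, 17 met the same ratio, or 1.08%. The rule applied to the other organs found 15 bare loci for stem and 17 for leaf. The 95 probe sets that met the rule read 95 different loci. None of these probe sets carries the name suffix that marks probes shared with related transcripts. Whether a locus has a further probe set that missed the rule was not checked. The difference between flowers and the other organs is therefore the reason for the choice, and it is given below as a description without a test.

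Wild-type Columbia-0 plants were grown in pots of 4, either in a growth chamber or in a greenhouse, with day and night temperatures of 25 °C and 20 °C, and no group carried a mutation, transgene or treatment. Expanding leaves were taken on day 15 after germination (3 arrays, replicate 1 from the chamber and replicates 2 and 3 from the greenhouse). The upper 2 inches of the stem, without siliques and pedicels, were taken on day 29 (4 arrays, replicates 1 and 2 from the chamber and replicate 3 from the greenhouse, while the title of replicate 4 gives the greenhouse and its protocol the chamber). Developed flowers together with unopened buds were also taken on day 29 (4 arrays, replicates 1 and 2 from the chamber and replicates 3 and 4 from the greenhouse). Trizol was the only step of the leaf RNA preparation, while RNA of the other organs also passed a silica column, so organ, plant age and RNA preparation cannot be told apart between leaf and the other groups. The labels do not say whether replicates were separate plants or pools, so the p-values below measure the spread between these samples.

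A flower holds several organs with their own programmes. Inside the anther, the tapetum is a nurse layer that feeds the developing pollen and supplies the material of the pollen wall, and it degenerates before the pollen is shed. Mature pollen carries stored transcripts for the growth of the pollen tube, many of them for cell wall enzymes and signalling proteins. Flowers also make volatile terpenes and nectar. In whole flowers with buds, fewer cells of a type and less RNA per cell cannot be told apart.

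Arrays of the same organ correlated at 0.923 or more, and arrays of different organs at 0.878 or less. These values cover the deposited signals, on a log2 scale, of all 22746 probe sets that are not controls. They are a description across probe sets and not across replicates. Stem replicate 3 had the lowest correlations within its organ and a 3'/5' signal ratio of 12.2 for the actin control probe sets, against 1.83 to 8.23 in the other arrays. All 95 loci passed the minimum signal of 100 in at least 3 arrays, and all passed it through the flower arrays. No floral organ identity gene among the 13 listed had a single-gene probe set, so the labelled organ was checked with other lists. These were chosen with earlier results of these data known. Of 10 tested tapetum and pollen wall genes that are not among the 95 loci, 8 were higher in flower than in both other organs (limma, Benjamini-Hochberg adjusted p under 0.05 and at least 2-fold in each), as were 5 of 9 pollen genes, against 828 of 17526 tested probe sets, or 4.72%. EMS1, a receptor kinase needed to form the tapetum, was 3.14 ± 0.32 (SE, log2 scale) above stem, PLIM2a, an actin-bundling protein of pollen, 5.19 ± 0.21 and SWEET9, the sugar exporter of nectaries, 3.01 ± 0.20. Above leaf they were 2.24 ± 0.34, 5.03 ± 0.22 and 3.04 ± 0.22. AT5G52160, AT2G31210 and ANX1, also on these lists, did not pass the minimum signal and were not tested. The tested tapetum genes not called were AT3G23840 and AT1G06170. The tested pollen genes not called were PLIM2b, AGL104, AGL66 and AT2G43150. Of these, AT2G43150 had negative estimates, -0.76 ± 0.26 against leaf and -0.61 ± 0.24 against stem. None of the 4 tested Calvin cycle genes and none of the 3 secondary wall genes was called higher in flower than in both.

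The mean deposited signal of the 95 loci in flowers ran from 476 to 22576 with a median of 1242, and the middle range between quartiles was 841 to 2127. It was over 1000 for 59 loci and under 1000 for 36. Probe sets bind with different strength, so the order of the signals is not an order of transcript levels. In contrast, 50 of the loci stayed under 100 in all 7 leaf and stem arrays. The ratio of the lowest flower array to the highest leaf or stem array, with the floor of 100, had a median of 7.83. For those 50 loci it is a lower bound set by the floor, so the ratios give no order of the loci. It was 10 or more for 37 loci and 20 or more for 13, and under 5 for 16.

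**Figure D1:**
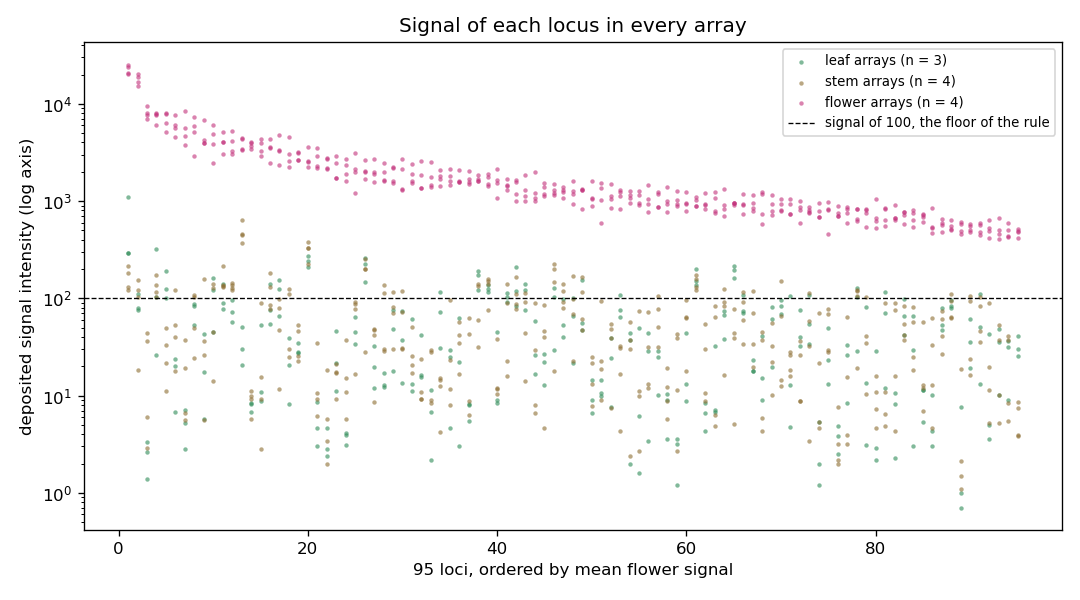
Deposited signal intensity (log axis) of the 95 loci in each of the 11 arrays, with the loci ordered by mean flower signal. Each point is 1 array and the dashed line is the floor of 100. The flower means run from 476 to 22576, and 50 loci lie under the line in all 7 leaf and stem arrays.

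The strongest flower signal came from AT2G20870, with 23713.7, 20407.0, 20870.5 and 25311.1 in flower replicates 1 to 4. In leaf it read 294.2, 1101.2 and 292.0, and in stem 180.9, 131.2, 122.5 and 216.7. Its leaf replicate 2 stood above all other leaf and stem arrays, and all 7 of them lay far under the flower arrays. AT1G66850, which is on the tapetum and pollen wall list, read 18721.3, 20367.0, 15116.4 and 16607.4 in flowers. Its leaf and stem arrays lay between 18.2 and 155.7, and its lowest flower array was 97.1 times its highest leaf or stem array.

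AT1G68875 was under the floor in every leaf and stem array, so its ratio of 70.5 is a lower bound. It read 7609.3, 9510.8, 7046.5 and 8059.6 in flowers, and no leaf or stem array was over 44.1. All 3 leaf arrays of this locus read under 4, at 2.6, 3.3 and 1.4. AT5G22430 was not as close to background outside flowers, since it read 7707.0, 7943.2, 6111.1 and 7973.5 in flowers and reached 100 in 6 of the 7 other arrays. Its leaf values of 26.2, 322.1 and 102.1 spread more widely than its stem values of 135.9, 115.8, 103.4 and 175.0.

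AT4G23680 read 6319.4, 5082.4, 7767.9 and 8019.5 in flowers. Both greenhouse arrays, replicates 3 and 4, lay above both chamber arrays. This order held in 4 of the 95 loci (4.21%), against 19.3% of all tested probe sets. AT2G47050 had the opposite order, with 6081.8, 7653.8, 5642.8 and 4532.2. AT3G07820, on the pollen list, read 5621.1, 8334.4, 4695.8 and 3812.7 in flowers, and at most 7.1 in leaf and 36.9 in stem.

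AT5G45880, also on the pollen list, read 5920.4, 7395.5, 5169.7 and 2903.2 in flowers. Flower replicate 4 was thus the low array and replicate 2 the high one, and its leaf and stem arrays stayed between 24.5 and 108.6. AT3G28980, a further locus of the pollen list, read 4227.3, 6812.9, 3933.6 and 3973.2. Here replicate 2 stood alone above 3 arrays that were close together. AT5G19580, on no list, read 4895.3, 6051.4, 3892.6 and 2435.7, with replicate 2 again highest and replicate 4 lowest.

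**Figure D2:**
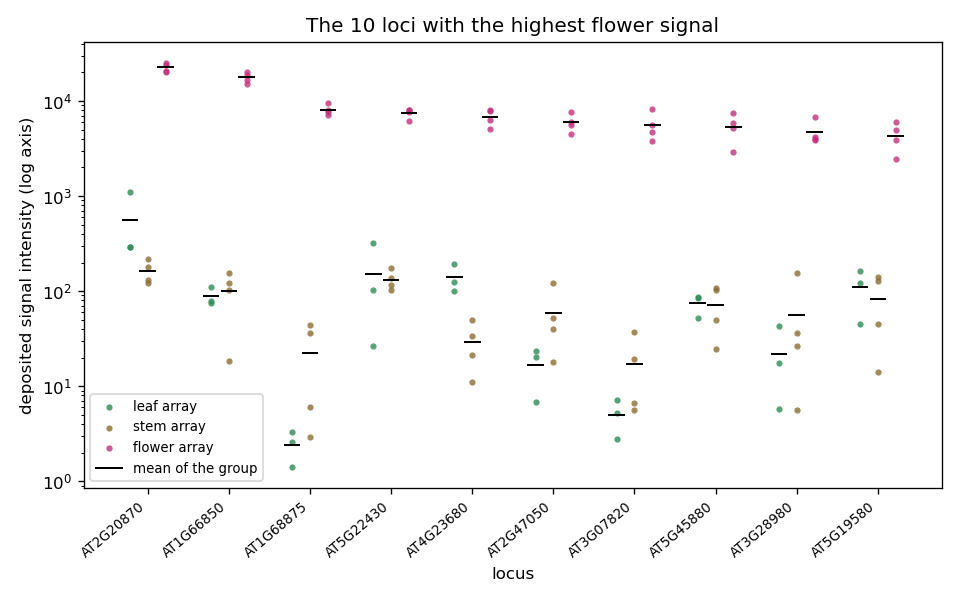
Deposited signal intensity (log axis) of the 10 loci with the highest mean flower signal, with 3 leaf, 4 stem and 4 flower arrays as points and the mean of each group as a bar. The flower arrays of AT1G68875 lie between 7046.5 and 9510.8, and its leaf arrays between 1.4 and 3.3.

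At the edge of the rule, AT1G25510 was just inside with a ratio of 4.01, and read 563.6, 449.1, 485.4 and 601.1 in flowers against at most 112.0 elsewhere. AT2G23900 followed at 4.03 and AT3G06220 at 4.15. Just outside were AT5G48210 and AT1G05450, both at 3.97, and AT3G19020 at 3.91. AT5G48210 read 1225.2, 787.2, 1285.1 and 943.5 in flowers, and its highest leaf or stem array was 198.1, so loci on both sides of the threshold resemble each other.

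Outside flowers, 45 of the 95 loci reached 100 in some leaf or stem array. A stem array did so for 38 loci and a leaf array for 28, with 21 loci in common. Only 3 loci were at 100 or more in all 7 arrays. These were AT2G20870, AT3G61160, with 211.0 to 274.4 in leaf and 226.3 to 378.3 in stem, and AT2G26850, with 120.7 to 198.2 over both organs. The 3 were named after their values were seen. AT3G61160 read 2541.9, 3567.2, 2578.7 and 2213.5 in flowers, all above its leaf and stem arrays.

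The rule sets an upper limit on leaf and stem but does not compare them, so that contrast was tested. On quantile-normalised values, transformed as log2(signal + 32), 2 loci were higher and 5 lower in stem than in leaf (limma, adjusted p under 0.05 and at least 2-fold). Over all 17526 tested probe sets, 9.33% were higher and 9.35% lower. The rule caps the leaf and stem signals and 50 of the 95 loci were under 100 in every array of both organs, so nothing is read from the smaller share of calls among the loci. With the arrays scaled to GapC, the glycolytic gene named in the labels, the balance turned to 5 higher and 2 lower, while the whole table gave 3687 higher and 614 lower and its median moved to 0.46 on the log2 scale. At an unadjusted p under 0.05 there were 15 of the 95 loci, against 43.1% of all probe sets. The spread in this fit is shared with the flower arrays, in which the loci are strong. From leaf and stem arrays alone, the lowest limma adjusted p among the loci was 4.04e-05, beside 3.78e-07 from all arrays. The median over the loci was 0.11 on the log2 scale, beside -0.04 over all tested probe sets.

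AT4G04460 stood apart in stem. It read 632.7, 462.6, 447.1 and 368.8 in the 4 stem arrays and 20.5, 30.3 and 50.6 in leaf, with no overlap. The difference was 2.89 ± 0.21 (SE, log2 scale; limma adjusted p = 3.78e-07), and it was 3.36 within the growth chamber and 2.74 within the greenhouse. The chamber value rests on 1 leaf array. The greenhouse value rests on 1 stem array, replicate 3, which had the highest 3'/5' actin ratio. Flowers still exceeded stem for this locus, at 4381.5, 4472.2, 3335.8 and 3437.8. AT3G26110 read 113.1, 29.8, 136.3 and 28.9 in stem and 17.0, 12.3 and 12.7 in leaf. Its stem arrays fell into a higher and a lower pair and all lay above leaf, with a difference of 1.09 ± 0.34 (adjusted p = 0.0242). That call was lost without leaf replicate 2 or 3 or stem replicate 1 or 3 (adjusted p = 0.0566 to 0.0695). It was also lost when only leaf and stem arrays were fitted.

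AT3G05600 was higher in leaf, at 160.6, 212.4 and 196.1, than in stem, at 44.1, 38.8, 5.1 and 77.3. Its log2 difference of stem minus leaf was -1.74 ± 0.31 (adjusted p = 0.000636). It was also the most even locus in flowers, with 963.4, 950.0, 910.3 and 955.8 and a coefficient of variation of 2.51%. AT4G23680 read 124.9, 192.7 and 99.9 in leaf and 11.2, 21.5, 49.8 and 33.4 in stem, a difference of -1.55 ± 0.26 (adjusted p = 0.000428).

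AT2G20870 was lower in stem by -1.31 ± 0.34 (adjusted p = 0.00839), but without leaf replicate 2, its high leaf array, the difference was -0.74 and the call was lost. AT1G75880 read 117.5, 72.2 and 31.2 in leaf and 15.3, 14.3, 4.2 and 12.4 in stem. The groups did not overlap, and the difference was -1.31 ± 0.27 (adjusted p = 0.00199). AT2G42990, at 75.7, 107.1 and 64.5 in leaf and 32.3, 30.6, 16.8 and 4.3 in stem, differed by -1.22 ± 0.27 (adjusted p = 0.00292). All 5 loci had the lower value in stem within the chamber (1 leaf array) and within the greenhouse (1 stem array, replicate 3). GapC scaling ended the calls of AT2G20870 (-0.82), AT1G75880 (-0.86) and AT2G42990 (-0.73). Many of these signals are under 100, where the added 32 shrinks the fold. With an added 100 only 1 locus was called higher and 2 lower.

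**Figure D3:**
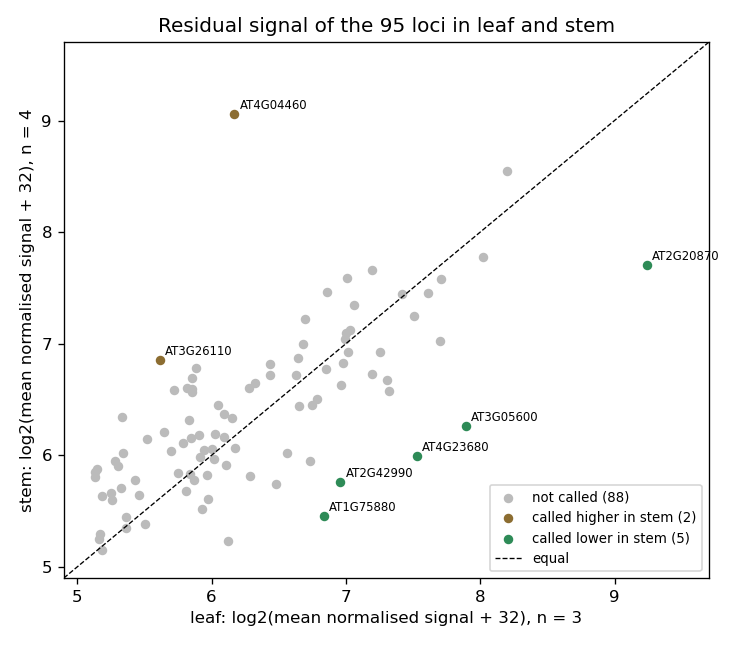
Signal of the 95 loci in leaf (x axis, 3 arrays) and stem (y axis, 4 arrays), each as log2(mean normalised signal + 32), with the line of equal signal dashed. The 2 loci called higher in stem lie above the line and the 5 called lower lie below it, and the other 88 were not called.

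By lists of genes drawn from general knowledge of flower biology, 14 of the 95 loci were pollen genes, 4 tapetum and pollen wall genes and 2 genes of flower volatile terpenes. The other 75 were on no list. The pollen list has 41 genes, of which 17 are read by a bare-locus probe set, and 14 of these 17 met the rule. The tapetum list has 44 genes, 10 of them with a bare-locus probe set. Both bare-locus probe sets of the 6 terpene genes met the rule. The lists were chosen with earlier results of these data known, so these counts are a description and not independent support.

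On the pollen list, AT3G28830 was close to background outside flowers, with 5.7 to 11.1 over the 7 leaf and stem arrays. It read 4015.4, 3921.6, 3682.1 and 3412.9 in flowers, with little spread. AT3G28750 read 3975.2, 4380.1, 3243.3 and 2899.5 in flowers and up to 89.1 outside them. AT3G01270 read 3587.0, 4324.6, 3516.3 and 2472.0, with leaf and stem between 54.8 and 183.1. The chamber arrays of all 3 loci lay above the greenhouse arrays. Over the 14 pollen loci, flower means ran from 599 (AT2G02720) to 5616 (AT3G07820).

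The tapetum loci are 4, and each is given. AT5G07230 read 1236.4, 732.9, 1183.2 and 574.5, with replicates 1 and 3 high and replicates 2 and 4 low. AT1G75920, at 1270.0, 912.2, 1144.5 and 957.6, and AT1G20120, at 1698.8, 1608.4, 1831.2 and 1622.0, had replicates 1 and 3 above replicates 2 and 4 as well. The order with replicates 1 and 3 on top thus held in 3 of 4 tapetum loci, and it also held in 3 of the 14 pollen loci. Over all 95 loci the share was 17.9%, and 17.5% over tested probe sets with a flower mean at least that of the lowest locus. The difference between the lists was not tested. AT1G66850, the fourth, had the chamber arrays above the greenhouse arrays instead. AT1G20120 also had leaf signals of 120.9, 189.0 and 174.0, so it was not at background outside flowers.

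The terpene loci were even across flowers. AT5G44630 read 1696.3, 2016.8, 1510.3 and 1585.7 in flowers and 5.5 to 8.2 in leaf. AT3G25810 read 750.5, 800.7, 862.1 and 775.1, a coefficient of variation of 6.01%, which was among the 7 loci under 10%. Leaf and stem arrays of AT3G25810 ranged from 3.4 to 113.1.

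Among the 4 flower arrays, the coefficient of variation of the 95 loci had a median of 18.8% and ran from 2.51% to 37.3%. For the 7210 probe sets with a mean flower signal at or above that of the lowest of the loci, the median was 15.0%. In 10 loci the highest flower array was 2 or more times the lowest. Replicate 2 was the highest array for 45 loci (47.4%, against 26.0% of those probe sets), replicate 1 for 26, replicate 3 for 13 and replicate 4 for 11. Replicate 4 was the lowest array for 46 loci (48.4%, against 27.5%). The loci are not independent of each other, since they share the same 4 RNA samples.

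Of the 14 loci on the pollen list, 10 were highest in replicate 2 and 11 lowest in replicate 4, and none was above its own flower mean in replicate 4. Relative to each locus's own flower mean, the median was 0.07, 0.33, -0.10 and -0.36 on the log2 scale in replicates 1 to 4. For the 4 tapetum loci the medians were 0.16, -0.15, 0.11 and -0.13, and for the 75 loci on no list 0.05, 0.15, -0.08 and -0.18. The sample titles carry the number 5 for replicates 1 and 3 and the number 6 for replicates 2 and 4, and the labels do not say what the number stands for. Both arrays of number 5 were above both of number 6 in 17 of the 95 loci (17.9%), against 15.9% of all tested probe sets and 17.5% of those at the same signal level. The reverse order held for 6 loci, against 17.5% and 15.1%. This ordering was looked at after the values of the tapetum loci had been seen.

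**Figure D4:**
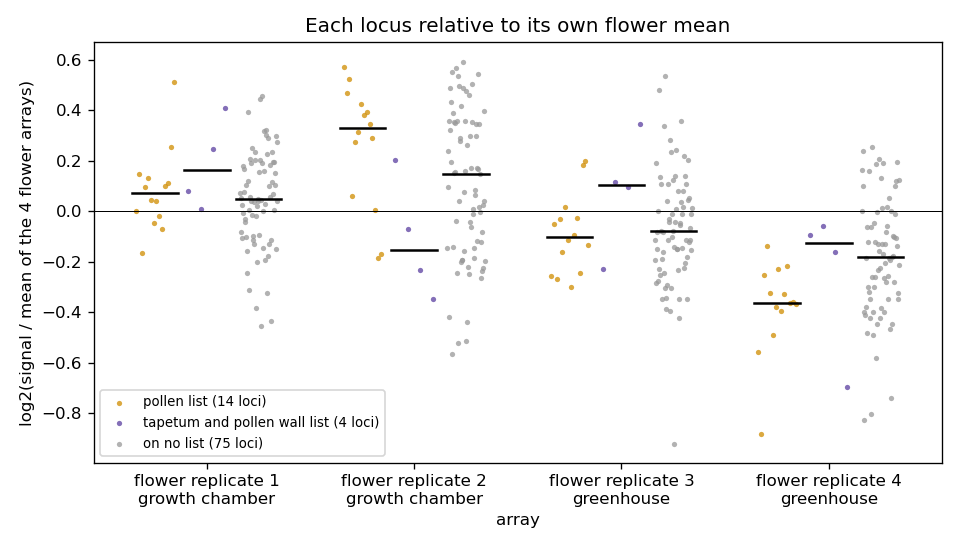
Signal of each locus in each flower array as log2 of the signal over the mean of that locus's 4 flower arrays, with the medians as bars, for the pollen list (14 loci), the tapetum and pollen wall list (4) and the loci on no list (75); the 2 terpene loci are left out. The pollen medians are 0.07, 0.33, -0.10 and -0.36 in replicates 1 to 4.

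Growth site within flowers was not used by the rule and was tested. No locus was called between greenhouse and growth chamber flowers (limma on 10 arrays without stem replicate 4; lowest adjusted p = 0.547). Of the 17526 tested probe sets 1 was called higher in the greenhouse (0.00571%) and 8 lower (0.0456%). An unadjusted p under 0.05 was reached by 8 of the 95 loci, against 8.02% of all. Flowers had 2 arrays per site, which limits the precision of each estimate.

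Although no locus passed singly, the estimates leaned to one side. The median of greenhouse minus chamber was -0.29 over the 95 loci and 0.01 over all tested probe sets, and 72 of the 95 loci had negative estimates. Both chamber arrays lay above both greenhouse arrays in 43 loci (45.3%), against 17.3% of all tested probe sets and 20.1% of those at the same signal level. The reverse held for 4 loci (4.21%), against 19.3% and 19.1%. With GapC scaling these counts turned to 1 locus with the chamber arrays above and 30 with the greenhouse arrays above, against 2.18% and 61.9% of the probe sets at the same signal level. The median over the loci then became 0.14, while that of all probe sets became 0.39. Relative to all probe sets the loci were thus lower by 0.26 under that scaling and by 0.29 under the main one, and in both 72 loci lay under the median of all. GapC scaling multiplies each array by a single factor, which shifts strong signals nearly alike. The offset could hardly change with it, so the likeness is not separate support for the lean.

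AT3G07820 had an estimate of -0.70 ± 0.29 (SE, log2 scale; adjusted p = 0.586), AT5G45880 of -0.79 ± 0.30 (adjusted p = 0.555) and AT5G19580 of -0.85 ± 0.35 (adjusted p = 0.590). In each of these loci both chamber arrays were above both greenhouse arrays. AT1G72290, at 1541.4, 1360.1, 599.6 and 1035.6, had the most negative estimate, -0.93 ± 0.34. AT1G33430, at 3338.2, 2320.7, 4789.8 and 3294.5, had the most positive one, 0.56 ± 0.27, although its groups overlapped in the deposited signal. The last 2 loci were named after their values were seen. In a fit of organ, site and their interaction, the site difference in flowers passed an adjusted p of 0.05 in none of the loci, either against leaf (24 of all 17526 probe sets, 0.137%) or against stem (63, 0.359%). At an unadjusted p under 0.05 there were 6 loci against leaf, beside 9.78% of all probe sets, and 19 against stem, beside 12.8%. That fit has 1 growth chamber leaf array and 1 greenhouse stem array, each assumed to vary like the other groups, so it says little about whether the differences are alike.

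RNA quality controls and GapC moved with site in flowers. The 3'/5' ratio of the actin control was 3.70, 3.22, 8.23 and 4.49 in flower replicates 1 to 4, and that of GAPDH 2.15, 2.93, 5.45 and 3.86. Both were higher in the 2 greenhouse arrays. The ubiquitin ratio lay between 1.97 and 2.21, lowest in the greenhouse arrays. GapC read 9474.8, 9273.1, 7932.8 and 6316.2. Their part in the lower greenhouse values of the 95 loci was not tested.

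The loci lie on all 5 chromosomes. Chromosomes 1 to 5 held 27, 10, 23, 9 and 26 of them, which is 0.870%, 0.508%, 0.942%, 0.522% and 0.965% of the bare-locus probe sets there. In the gene order of assembly TAIR10.1, with 27444 protein-coding genes, 3 pairs of the loci were direct neighbours. These pairs were AT3G01240 and AT3G01250, AT3G05600 and AT3G05610, and AT5G07420 and AT5G07430. Of the 79 immediate neighbours with a single-gene probe set, 6 met the flower ratio (7.59%), and these are the 6 loci of those pairs. Among the neighbours of all loci with a single-gene probe set the share was 0.880%. At 2 gene steps it was 3 of 80 (3.75%), against 0.931%. These were AT3G01250 and AT3G01270, both among the loci, and ATA27, a gene with a symbol. At 3 gene steps the share was 6 of 85 (7.06%), against 0.876%. All 6 are themselves among the loci: AT3G01240 and AT3G01270, AT3G28790 and AT3G28830, and AT5G15110 and AT5G15140. The same ratio chose the loci and scored their neighbours, and both loci of a pair are counted. Apart from ATA27, the shares thus show loci lying near each other, and no further measured neighbour that met the ratio. Of 189 distinct immediate neighbours only 79 were measured, and a neighbour that missed the ratio can still be higher in flowers. AT3G28840, for example, lies 1 gene step from a locus and had a ratio of 3.20. It was called higher in flower than in both other organs, and was named after its values were seen.

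Counting loci within 10 gene steps of each other, 20 of the 95 fell into 9 runs. The longest runs had 3 loci each, and both were on chromosome 3. One comprised AT3G01240, AT3G01250 and AT3G01270, with flower means of 2715 ± 601, 1023 ± 167 and 3475 ± 762 (SD, n = 4). The other comprised AT3G28750, AT3G28790 and AT3G28830, at 3625 ± 675, 3104 ± 1023 and 3758 ± 269 (SD, n = 4). In both runs no leaf or stem array was above 183.1. AT3G01240 read 2293.4, 3470.6, 2922.7 and 2173.9 in flowers, highest in replicate 2 and lowest in replicate 4. AT1G75920 lies 2 gene steps from ATA27, a glucosidase gene of the tapetum that has a symbol and met the same ratio, with a flower mean of 5066 ± 387 (SD, n = 4). Direct neighbours did not always share the level. AT3G05600 reached 160.6 to 212.4 in leaf, while AT3G05610, beside it, read 8.4, 26.0 and 33.1.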

How the data were processed

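RNA from 3 leaf, 4 stem and 4 flower samples was hybridised to ATH1 arrays. Per the labels, the authors computed signal intensity in Microarray Suite 5.0, scaled to a target of 500, and deposited it. The labels also give a scaling of GapC to 8500, which the deposited values do not carry, since each array has a 2% trimmed mean of 500. The deposited signal was used directly, without GapC scaling, to choose the loci and for per-array values.

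For tests, arrays were quantile normalised and log2(signal + 32) was taken. Without controls, 17526 of 22810 probe sets passed the filter, a normalised signal of 100 or more in 3 or more arrays. Differences were fitted with limma 3.58.1 (trend) in R 4.3.3 with two-sided tests and Benjamini-Hochberg adjustment over all 17526, and called at an adjusted p under 0.05 and at least 2-fold. The number of arrays limits the precision. Folds on this scale are smaller than raw ratios for weak signals. Stem against leaf used all 11 arrays with 1 mean per organ. The site contrast used 1 mean per organ and site in 10 arrays, leaving out stem replicate 4. Leaf and stem numbers did not pair the samples (correlation of deviations -0.10 to -0.03).

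The fits were tested on simulated data with planted changes. Genes were named by the platform's probe table, which pairs 13513 probe sets with 1 gene and 503 with several, and gene order from the TAIR10.1 gene table, in which 94 of the 95 loci matched by gene identifier. No table here describes gene products, so loci are named by tag only. The loci, the gene lists and the tests were chosen with earlier results of these data known. Named loci are the 10 with the highest flower means, the 6 largest ratios with the floor, 2 per list, called loci, the longest chromosomal runs and the 3 loci on each side of the threshold. Others, including AT5G07230, AT1G75920, AT2G02720, AT3G05610, AT3G61160, AT2G26850 and the remaining neighbour pairs, were named after their values were seen. Alternatives were other scalings, pseudocounts, filters, samples, blocks, and leaving out each array.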

Additional observations from a re-analysis of the deposited data

Results flagged for a closer look

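The 27 loci named by rule were searched, but not those named after their values were seen. In these, 54 groups of 4 arrays were searched for an array far from the others, and 4 were found, where chance gives about 1 in 20 groups. AT5G22430 read 6111.1 in flower replicate 3 against a median of 7825.1 over the 4 flower arrays. AT3G28980 read 6812.9 in flower replicate 2 against a median of 4100.25. In stem, AT3G28750 read 89.1 in replicate 4 against a median of 12.35, and AT3G01240 read 35.0 in replicate 3 where the other stem arrays read 6.2 to 10.7. Both stem values lie under the floor of 100 used to choose the loci.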

How the results depend on the processing

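The choice of loci gave 59 of the 95 with a floor of 200 and 47 with a ratio of 8, and 95 to 102 without single arrays. In stem against leaf, the loci called higher numbered 5 with GapC scaling, 1 with a pseudocount of 100, 4 with no minimum fold and 1 from leaf and stem arrays alone. They numbered 1 to 4 without single arrays, with 1 without leaf replicate 2, leaf replicate 3 or stem replicate 1 and 4 without stem replicate 4. The loci called lower numbered 2 with GapC scaling, 2 with a pseudocount of 100, and 4 to 8 without single arrays, with 8 without stem replicate 2. The replicate number as a block gave 2 higher and 5 lower, as in the unblocked fit, and moved no call among the named loci. The median of stem minus leaf was 0.39 with GapC scaling (0.46 over all probe sets), 0.24 with a pseudocount of 1, 0.0061 with site as a covariate, and 0.04 to 0.16 without single arrays. Over all probe sets, stem calls were 3687 higher and 614 lower with GapC scaling and 2790 higher and 3249 lower with no minimum fold. Besides the calls named above, GapC scaling ended those of AT2G20870 (-0.82), AT1G75880 (-0.86) and AT2G42990 (-0.73), and a pseudocount of 100 those of AT4G23680 (-0.93), AT3G26110 (0.59), AT1G75880 (-0.68) and AT2G42990 (-0.66).

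No locus was called between flower sites under any alternative run. The median of greenhouse minus chamber was 0.14 with GapC scaling and -0.35 to -0.21 without single arrays. With GapC scaling the estimates of AT2G20870 (0.47), AT1G66850 (0.10), AT1G68875 (0.23) and AT5G22430 (0.24) turned positive, and that of AT2G20870 also with trimmed mean scaling (0.063). Without single arrays AT2G20870 ran from -0.22 to 0.081, the latter without flower replicate 1. Calls over all probe sets ran from 0 to 8 higher and 0 to 21 lower without single arrays, and were 0 and 14 with the title number as a block, an alternative chosen after seeing the data. The causes were not tested. GapC scaling moves the median of all probe sets, and a larger pseudocount shrinks folds of weak signals by construction. Signals close to background limit what stem and leaf can show for most of the loci.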
